A study of Caenorhabditis elegans with 2 samples.

Results

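Membrane traffic is run by small GTPases of the Rab and Arl families and by protein complexes that sort cargo. The genes described here are the 62 protein-coding genes of C. elegans whose symbols begin with rab, arl, vps or snx, out of 19973 protein-coding genes on the nuclear chromosomes. They comprise 19 rab, 6 arl, 30 vps and 7 snx genes, and 2 further genes of these families were not analysed here. The genes were chosen by symbol alone. Their regions were selected on measured values, as the entries of the pooled ChIP-seq region list with a summit in the promoter window. This window runs from 1000 bp before to 200 bp after the 5′ end of any transcript of the gene in the annotation. This gave 55 of the 24890 regions in the pooled list. The gene set was proposed with results of these data already known, so its counts are descriptions, set beside the same counts over all genes.

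Rab GTPases switch between a GTP-bound and a GDP-bound form, and each marks a particular membrane and recruits its tethers and motors. Arl GTPases act in the same way at the Golgi, on lysosomes and in cilia. The ESCRT complexes bend endosomal membrane inward to form multivesicular bodies, retromer and the sorting nexins return cargo from endosomes, and the HOPS, CORVET, GARP and EARP complexes tether vesicles before fusion. PHA-4, the worm's FoxA protein, is a forkhead transcription factor best known for specifying the pharynx. It is also found in the intestine, a tissue with heavy endocytic traffic.

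All libraries belong to 1 group. ChIP-seq, the sequencing of DNA recovered with a chromatin protein, was run on whole young adult worms of strain OP37, genotype unc-119(ed3) III; wgIs37. The transgene wgIs37 carries pha-4 fused to eGFP, males and females were pooled, and age in days was unknown. There were 2 biological replicates, each from its own biosample. Whole worms mix all tissues, so the regions cannot be given to a cell type, and a tagged transgene may not match the native gene in dose. No untagged or input library was analysed here, so no value is set against a control, and no expression data were used.

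The replicates stand apart, so the rank in each is given beside the pooled value. Replicate 1 had 29980 nuclear regions with signals up to 27.0, and 0 of them had a q value of at most 0.05. Replicate 2 had 30000 regions, of which 7548 passed that threshold. The pooled list had 4065 such regions. Over all 24890 regions of the pooled list, signals ran from 9.28 to 168.7 with a median of 13.1. The optimal list, the regions that passed the authors' reproducibility step, held 839 regions, and these were the 839 pooled regions of highest signal, down to 41.0. Signal is the authors' own value with a scaling that is not stated, so signals are compared within a list and replicates by rank.

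The strongest summits of the set are shown first because the rest of the text returns to them. The 5 genes with an optimal peak were rab-18, rab-7, vps-60, vps-22 and snx-1, and vps-37 and snx-6 are added as weaker regions with a motif close to the summit. Each line reads 5′ to 3′ on the gene's own strand, from the RefSeq sequence of WBcel235, which is the ce11 build. The stretches are chrIII:1080735-1080763 on the minus strand for rab-18, chrII:11967605-11967805 on the minus strand for rab-7, chrV:8606420-8606620 on the minus strand for vps-60, and chrIII:4963045-4963208 on the minus strand for vps-22. Those of the other genes are chrX:1128554-1128754 on the plus strand for snx-1, chrV:5592425-5592625 on the plus strand for vps-37, and chrV:17978296-17978496 on the minus strand for snx-6. A stretch covers 100 bp on either side of the summit, except that untranslated sequence is left out: for rab-18, whose summit lies in its own 5′ untranslated exon, only a 29-base site is given. Capitals mark the motifs, which are explained after the sequences.
rab-18: GCACTTGgcatcgtgcCAAGTGCAAGTGC
rab-7: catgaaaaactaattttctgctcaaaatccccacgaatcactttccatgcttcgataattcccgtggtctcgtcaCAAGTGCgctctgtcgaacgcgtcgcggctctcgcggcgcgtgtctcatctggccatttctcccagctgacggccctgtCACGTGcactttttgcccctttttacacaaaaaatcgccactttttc
vps-60: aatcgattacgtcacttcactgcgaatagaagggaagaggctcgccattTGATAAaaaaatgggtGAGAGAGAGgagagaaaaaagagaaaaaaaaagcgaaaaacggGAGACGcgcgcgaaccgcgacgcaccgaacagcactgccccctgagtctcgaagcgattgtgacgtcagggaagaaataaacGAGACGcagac
vps-22: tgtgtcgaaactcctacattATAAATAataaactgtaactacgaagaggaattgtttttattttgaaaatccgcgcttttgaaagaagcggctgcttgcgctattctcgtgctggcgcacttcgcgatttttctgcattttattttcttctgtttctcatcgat
snx-1: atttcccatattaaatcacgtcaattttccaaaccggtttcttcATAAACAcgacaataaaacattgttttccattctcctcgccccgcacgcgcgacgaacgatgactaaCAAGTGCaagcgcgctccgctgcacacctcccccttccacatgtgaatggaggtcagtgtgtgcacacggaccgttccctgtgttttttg
vps-37: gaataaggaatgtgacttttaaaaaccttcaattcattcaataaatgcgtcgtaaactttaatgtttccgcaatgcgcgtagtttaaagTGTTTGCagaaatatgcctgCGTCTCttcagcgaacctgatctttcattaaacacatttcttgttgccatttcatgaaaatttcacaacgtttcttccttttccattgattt
snx-6: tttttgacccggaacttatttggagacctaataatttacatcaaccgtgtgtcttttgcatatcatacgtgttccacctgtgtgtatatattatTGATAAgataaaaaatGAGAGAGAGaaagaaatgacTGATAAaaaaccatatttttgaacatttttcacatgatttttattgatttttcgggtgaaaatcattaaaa

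The search covered both strands within 100 bp of each summit, overlapping hits included, for 4 motifs. These were a forkhead heptamer that reads T, then A or G, then TTT, then A or G, then C or T, the repeat GAGAGAG, the E-box CACGTG and the GATA word TGATAA. The words CAAGTGC and CGTCTC were added after the sequences of these genes had been seen, and CGTCTC was also known from an earlier analysis of the whole series. A match describes the letters in the window and is not evidence of a binding site.

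The word CAAGTGC recurred near the strongest summits. In the rab-18 site it occurred 3 times, once as its reverse complement GCACTTG, with starts 18 bp before, 2 bp before and 4 bp after the summit, and the last 2 copies overlap by their shared C. In the rab-7 stretch it started 25 bp before the summit, and in the snx-1 stretch 11 bp after it. The word was thus found in 3 of the 5 optimal regions of the trafficking genes, against 28 of 520 optimal regions with any protein-coding gene in the window, or 5.38%. At q values of at most 0.05 it was found in 4 of 22 of their regions, rab-10 being the fourth, against 3.52% of 2219. Over all promoter regions it was found in 5 of 55, with vps-2 added, against 2.31% of 9408. The word was picked from these very sequences, so its count in them is no independent evidence.

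A forkhead heptamer was present in 20 of the 55 regions, or 36.4% with an exact Clopper-Pearson 95% interval of 23.8 to 50.4%, against 40.9% of the 9408 regions in any promoter window. Among the 22 regions at q values of at most 0.05 it was present in 9, or 40.9% with an interval of 20.7 to 63.6%, against 45.5% of 2219. Those intervals cover counting error only and treat regions as independent. Yet overlapping pairs of regions lay at rab-11.1, rab-5, arl-3, snx-13, vps-25 and vps-50. Only at rab-11.1 did both overlapping regions have q values of at most 0.05. Nothing is read from both shares of all promoter regions lying inside the intervals. Of the 5 optimal regions, only vps-22 and snx-1 held one, 80 bp and 56 bp before the summit, and those of rab-18, rab-7 and vps-60 held none within 100 bp. The heptamer of vps-37 started 11 bp before its summit.

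The other motifs were each present in few regions. GAGAGAG was found in 3 of 55, or 5.45%, against 7.05% of all promoter regions, and these were vps-60, snx-6 and the strongest vps-25 region, which held 20 overlapping copies. CACGTG was found in 3 of 55, or 5.45%, against 4.95%, and TGATAA in 11 of 55, or 20%, against 25.1%. CGTCTC was found in 8 of 55, or 14.5%, against 11.2%. None of the 4 chosen motifs was present in 26 of the 55 regions, or 47.3%, against 39.7% of all promoter regions.

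Of the 62 trafficking genes, 5 had an optimal peak in the window, or 8.06%, and of all protein-coding genes 3.52%. A region at a q value of at most 0.05 was present for 21 trafficking genes, or 33.9%, and for 12.8% of all genes. Any pooled region was present for 43, or 69.4%, and for 38.9% of all genes. Because the set was proposed with these lists in view, nothing is read from the differences. Of the 43 genes, 33 had 1 region, 8 had 2, and rab-5 and vps-25 had 3 each. The strongest region had a median signal of 22.1 over these 43 genes, with quartiles of 12.8 and 30.2, and of 16.8 over the 7776 genes with any region, with quartiles of 12.1 and 26.3. The 19 genes without a region have no signal and do not enter that median.

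**Figure D1:**
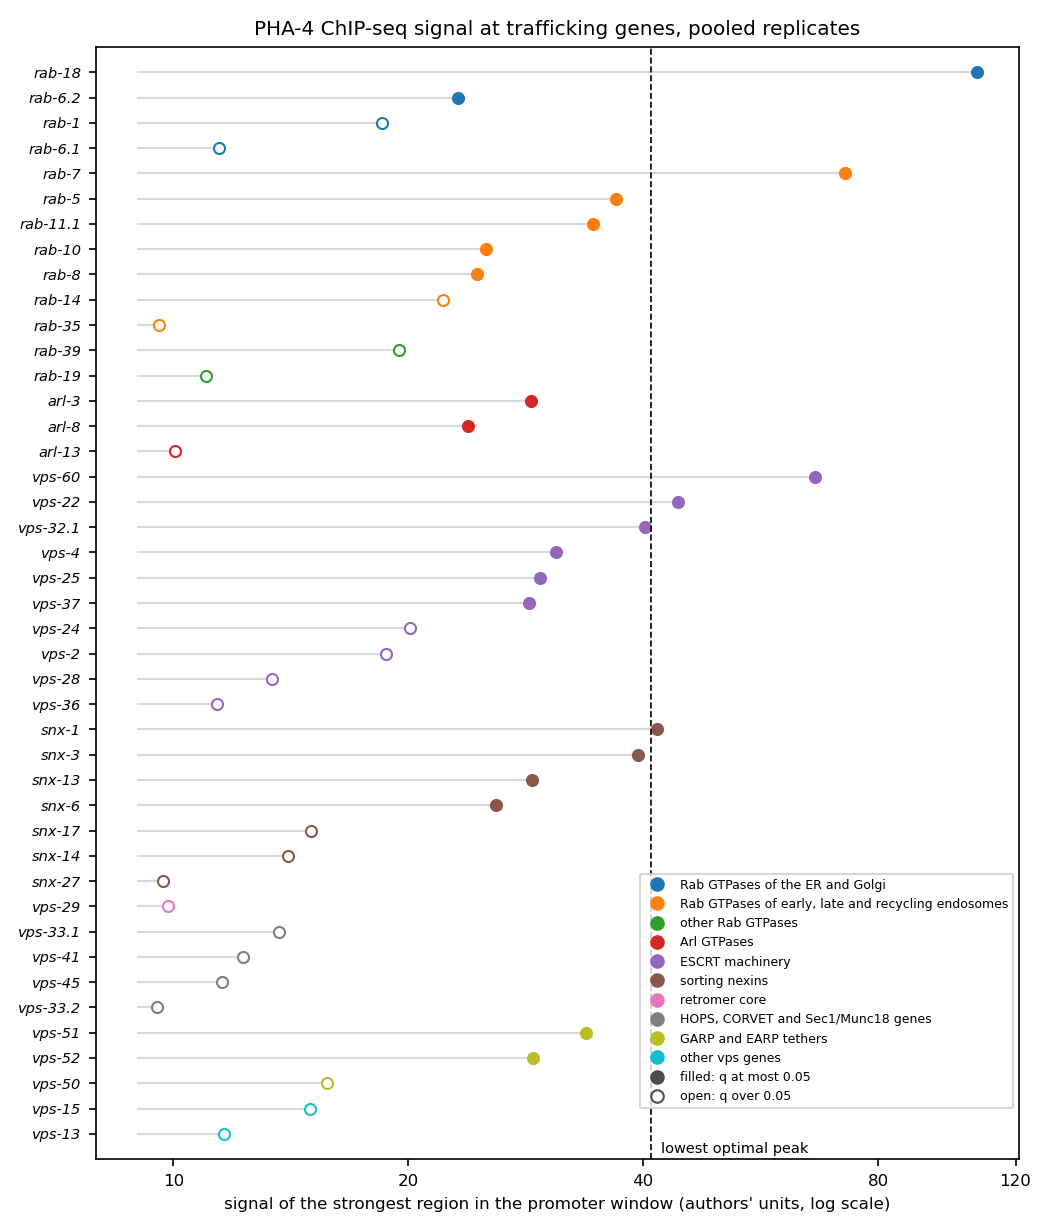
Signal of the strongest pooled region in the promoter window (x axis, authors' units, log scale) for the 43 trafficking genes with a region (rows), coloured by role; filled points have a q value of at most 0.05 and the dashed line is the lowest optimal peak, 41.0. The Rab gene rab-18 stands at 107.2, rab-7 and vps-60 follow at 72.6 and 66.5, and the HOPS, CORVET and Sec1/Munc18 genes and the retromer core gene vps-29 lie at 13.7 or lower.

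Each replicate on its own gave a different subset. Among the 839 strongest regions of replicate 2, the windows of 3 trafficking genes were hit, or 4.84%, and those of 3.5% of all genes; the 3 were rab-18, rab-7 and vps-60. At q values of at most 0.05 replicate 2 gave 27 trafficking genes, or 43.5%, and 20.6% of all genes. Among the 839 strongest regions of replicate 1, 5 trafficking genes were hit, or 8.06%, and 2.26% of all genes, and these were rab-18, rab-7, vps-60, rab-14 and vps-36. Thus rab-18, rab-7 and vps-60 were among the strongest in either replicate, whereas vps-22 and snx-1 were optimal in the pooled list but not in the 839 strongest of replicate 1 or of replicate 2. For rab-7 the replicates did not point to 1 region, as is described below. In the vps-36 window, the replicate 1 region, at rank 246, did not overlap the pooled region, which had a signal of 11.4.

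Among the Rab GTPases of the endoplasmic reticulum (ER) and Golgi, 4 of 6 genes had a region, 2 had one at a q value of at most 0.05 and 1 had an optimal peak. That peak belonged to rab-18, whose product acts on the ER and on lipid droplets, and it was the strongest region of the set. Its pooled signal was 107.2 (q = 0.000608), which put it at rank 20 of 24890. It ranked 165 in replicate 1, with a signal of 14.2, and 25 in replicate 2, with a signal of 94.6. Both ranks lie in the top 1% of their lists, at 0.550% and 0.0833%. The summit lay 30 bp downstream of the rab-18 5′ end, and the same region fell in the windows of kbp-4, a kinetochore gene 156 bp away, and par-2, a cell polarity gene 656 bp away.

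The remaining genes of this role were weaker. The Golgi gene rab-6.2 had a signal of 23.2 (q = 0.0369), the lowest of the 21 genes past the q threshold, with rank 3719 in replicate 2 but only the top 70.0% of the list in replicate 1. The region of rab-1, which acts in transport from the ER to the Golgi, reached 18.5 (q = 0.175), and that of rab-6.1 reached 11.4 and had no overlap in either replicate. No region lay in the windows of rab-30 and rab-33.

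Of the 9 Rab genes of early, late and recycling endosomes, 7 had a region and 5 had one past the q threshold, with a median strongest signal of 25.1. The late endosome and lysosome gene rab-7 had an optimal peak with a signal of 72.6, rank 103 in the pooled list and rank 87 in replicate 2 with a signal of 70.1. No region of replicate 1 overlapped it. Its summit lay 774 bp upstream of rab-7 but only 161 bp upstream of W03C9.5, and mex-1 was a further gene in range. A second region, 81 bp upstream of rab-7, had a pooled signal of 13.1 and a rank of 12582, and here it was replicate 1 that ranked it high, at 701, while replicate 2 had it at 8862. So the replicates differ on which region upstream of rab-7 is the stronger.

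The early endosome gene rab-5 had a signal of 36.9 (q = 0.00127), the third gene below the optimal list, with ranks of 992 in replicate 1 and 3398 in replicate 2. Its summit was 779 bp upstream of rab-5 and 819 bp upstream of nmat-2. The recycling endosome gene rab-11.1 had a pair of regions past the q threshold, with signals of 34.5 and 25.7, and both were nearer to the ribosomal protein gene rpl-7 than to rab-11.1. Both overlap the same entry in each replicate, at rank 1415 in replicate 1 and 2197 in replicate 2.

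Lower signals were found at the other endosomal Rab genes. The recycling gene rab-10 had 25.1, with ranks of 2991 in replicate 1 and 6220 in replicate 2, and the exocytic gene rab-8 had 24.5, with ranks of 2956 in replicate 1 and 3996 in replicate 2. The rab-8 summit was slightly nearer to D1037.1, at 342 bp, than to rab-8, at 353 bp. Just outside the threshold, rab-14 had 22.1 (q = 0.0504) and ranked 437 in replicate 1. Of the genes with a stronger pooled region, only rab-18 and vps-60 ranked higher there. The recycling gene rab-35 had 9.59, the lowest of the role, and rab-11.2 and rab-21 had no region. Of the other Rab genes, rab-39 reached 19.5 and rab-19 reached 11.0, while rab-28 and rab-37 had none.

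Among the Arl GTPases, 3 of 6 genes had a region and 2 had one past the q threshold. The ciliary gene arl-3 had a signal of 28.7 (q = 0.00599), with ranks of 2401 in replicate 1 and 2838 in replicate 2, in an intron of tps-2 and nearer to F19H8.2. The lysosomal gene arl-8 had a signal of 23.8 (q = 0.0283) and no overlap in replicate 1, and its summit lay in the 5′ untranslated exon of nuo-3, 643 bp from arl-8. The region of arl-13, another ciliary gene, was the one closest to the far edge of the window, 998 bp upstream, with a signal of 10.1. The windows of arl-1, arl-5 and arl-6 held no region.

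The ESCRT machinery had a region at 10 of its 11 genes, one past the q threshold at 6, and an optimal peak at 2, with a median of 29.0. The vps-60 peak, near a gene of the ESCRT-III family, had a signal of 66.5 and rank 148 in the pooled list. It ranked 183 in replicate 1, with a signal of 14.0, and 368 in replicate 2, with a signal of 48.7. Its summit was 392 bp upstream, intergenic, and no other protein-coding gene shared it. The vps-22 peak, of an ESCRT-II subunit, had a signal of 44.4 and rank 668, with ranks of 1125 in replicate 1 and 1041 in replicate 2. It lay 615 bp upstream of vps-22 but 64 bp upstream of C27F2.9, so the nearest 5′ end is that of the neighbour.

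Further ESCRT genes stood close to or below the optimal cut. The ESCRT-III gene vps-32.1 had a signal of 40.2 (q = 0.00168), the first of the set below the optimal list, with ranks of 1652 in replicate 1 and 1102 in replicate 2, and its summit lay in an exon of the non-coding RNA gene C56C10.15, nearer to icd-1. The gene of the disassembly ATPase, vps-4, had 30.9, with rank 1151 in replicate 2 but the top 78.7% in replicate 1. The ESCRT-II gene vps-25 had 29.5 and no overlap in replicate 1, in one of its own introns, 55 bp upstream of an internal annotated 5′ end. Its other 2 regions, at the outer 5′ end of the gene, had signals of 21.5 (q = 0.0645) and 9.98 (q = 0.913). Both met a replicate 1 entry at rank 1289. The ESCRT-I gene vps-37 had 28.5. The weaker genes were vps-24 at 20.1, vps-2 at 18.7, vps-28 at 13.4 and vps-36 at 11.4, and vps-20 had no region. Members of ESCRT-I, ESCRT-II and ESCRT-III, and the ATPase, were thus all among the genes past the q threshold.

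All 7 sorting nexins had a region, 4 had one past the q threshold and 1 had an optimal peak, with a median of 25.9. The peak of snx-1, which pairs with snx-6 in membrane-bending dimers, was the weakest optimal peak of the set, with a signal of 41.6 and rank 802. It ranked 1297 in replicate 1 and 1643 in replicate 2, and no other gene shared its window. Next came snx-3, which acts with retromer, at 39.4 (q = 0.00157), with ranks of 2755 in replicate 1 and 1120 in replicate 2, in a window shared with rad-54.L. After it, snx-13 had 28.8 and no overlap in replicate 1, in a window shared with snr-1, while a second region that overlaps the first had 14.4 and met an entry at rank 2738 in replicate 1. The region of snx-6 lay 880 bp upstream of its nearest 5′ end, in one of its own introns, with a signal of 25.9 and no overlap in replicate 1. Signals of 15.0, 14.0 and 9.70 were found for snx-17, snx-14 and snx-27.

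The retromer core had 1 region for 3 genes. That region, of vps-29, had a signal of 9.85 and lay in a coding exon of ZK1128.1, and vps-26 and vps-35 had none. Among the GARP and EARP tethers, vps-51 had a signal of 33.8, shared with the retinoblastoma-type gene lin-35, vps-52 had 28.9 and vps-50 had 15.7, while vps-53 and vps-54 had no region. The vps-51 region ranked 6024 in replicate 1 and 2161 in replicate 2, and the vps-52 region was in the top 84.2% of replicate 1 and the top 7.77% of replicate 2.

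The 9 HOPS, CORVET and Sec1/Munc18 genes had no region past the q threshold. The signals were 13.7 at vps-33.1, 12.3 at vps-41, 11.5 at vps-45 and 9.54 at vps-33.2, and the windows of vps-8, vps-11, vps-16, vps-18 and vps-39 were empty. Of the other vps genes, vps-15 had 15.0 and vps-13 had 11.6. These role groups hold 2 to 11 genes each, and differences between them were not tested.

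**Figure D2:**
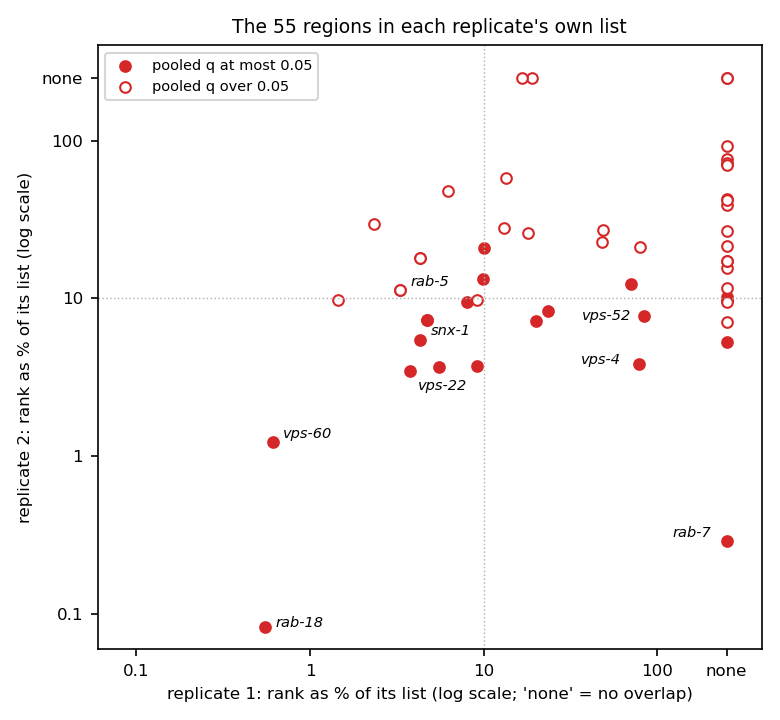
Rank of each of the 55 regions in replicate 1 (x axis) and replicate 2 (y axis), as a percentage of that replicate's list on log scales, with filled points for pooled q values of at most 0.05 and the outer position for regions with no overlap. The regions of rab-18 and vps-60 lie near the top of both lists, and that of rab-7 is near the top of replicate 2 and absent from replicate 1.

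Across the set, 32 of the 55 regions overlapped a region of replicate 1, or 58.2%, against 51.3% of all promoter regions, and 51 overlapped one of replicate 2, or 92.7%, against 85.0%. Both replicates were overlapped by 30 regions, or 54.5%, against 40.9%, and these belonged to 25 genes. Of the 22 regions past the q threshold, all 22 were found in replicate 2, against 99.8% of the 2219 promoter regions past it. In replicate 1, 17 were found, or 77.3%, against 62.4%, and 5 were absent. Among those 22, 12 lay in the top 10% of the replicate 1 list, or 54.5%, against 23.3% of all promoter regions past the threshold. For replicate 2 the count was 17, or 77.3%, against 71.5%. In the top 10% of both lists were 9 of the 22, with no share over all regions to set beside this count. An overlap of 1 bp was enough, so that neighbouring pooled regions can share an entry of a replicate.

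**Figure D3:**
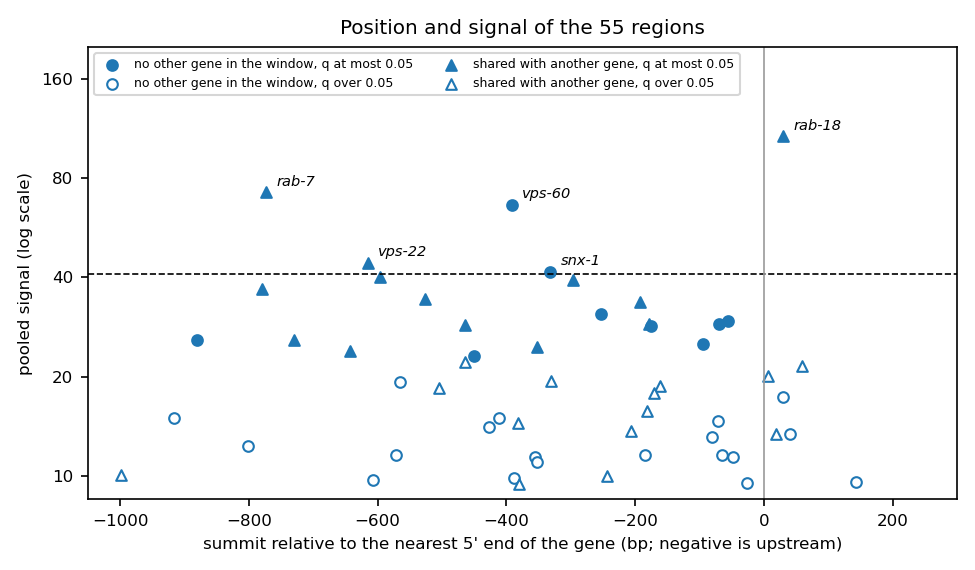
Summit position relative to the nearest annotated 5′ end of the gene (x axis, bp, negative is upstream) and pooled signal (y axis, log scale) for the 55 regions; triangles mark regions that also lie in the window of another protein-coding gene and the dashed line is the lowest optimal peak. The summits spread over the upstream window, 48 of 55 are upstream of the 5′ end, and of the 5 optimal peaks rab-18, rab-7 and vps-22 are shared.

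Summits of trafficking genes were a median of 332 bp before the gene's nearest 5′ end, with quartiles of 87.5 and 515.5 bp, against 274 bp over all pairs of a gene and a region, with quartiles of 84 and 598 bp. At q values of at most 0.05 the medians were 372.5 bp for trafficking genes and 238 bp for all genes. Intergenic sequence held 34 of the 55 summits, and 10 lay in an intron. A 5′ untranslated exon held 5 summits, a coding exon 3, an exon of a non-coding RNA gene 2 and a 3′ untranslated exon 1. Chromosome I held 18 of the 55 regions and 9 of the 22 past the q threshold. No share over all promoter regions is given for these places and this chromosome, so nothing is read from these counts.

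Many of these regions cannot be given to a single gene. Another protein-coding gene had the summit in its own window at 27 of the 55 regions, or 49.1%, against 27.0% of all pairs of a gene and a region, and in 13 of the 27 the other gene was the nearer. Past the q threshold the count was 13 of 22, or 59.1%, against 40.4% of such pairs. Of those 22 regions, 8 were nearer to another gene, among them the optimal peaks of rab-7 and vps-22. When each region was given only to its nearest gene, 3 trafficking genes had an optimal peak, against 2.56% of all genes, and 14 had a region past the q threshold, against 10.2%.

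The counts were also split by what lies upstream of each gene, a description with no test. An opposite-strand gene began within 1000 bp upstream of 16 trafficking genes, and 14 of these had a region, or 87.5%, against 52.9% of all genes with that arrangement. More than 1000 bp of upstream space was present at 18, and 16 of these had a region, or 88.9%, against 34.6%. A same-strand gene lay within 1000 bp upstream of 21, and 8 of these had a region, or 38.1%, against 38.2%. The 5′ end lay inside another gene at 7, and 5 of these had a region, or 71.4%, against 37.1%. In the first pair of arrangements, 8 genes each had a region past the q threshold, or 50% and 44.4%, against 24.9% and 10.6% of all genes. With a same-strand gene upstream, 2 had one, or 9.52%, against 9.60%.

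**Figure D4:**
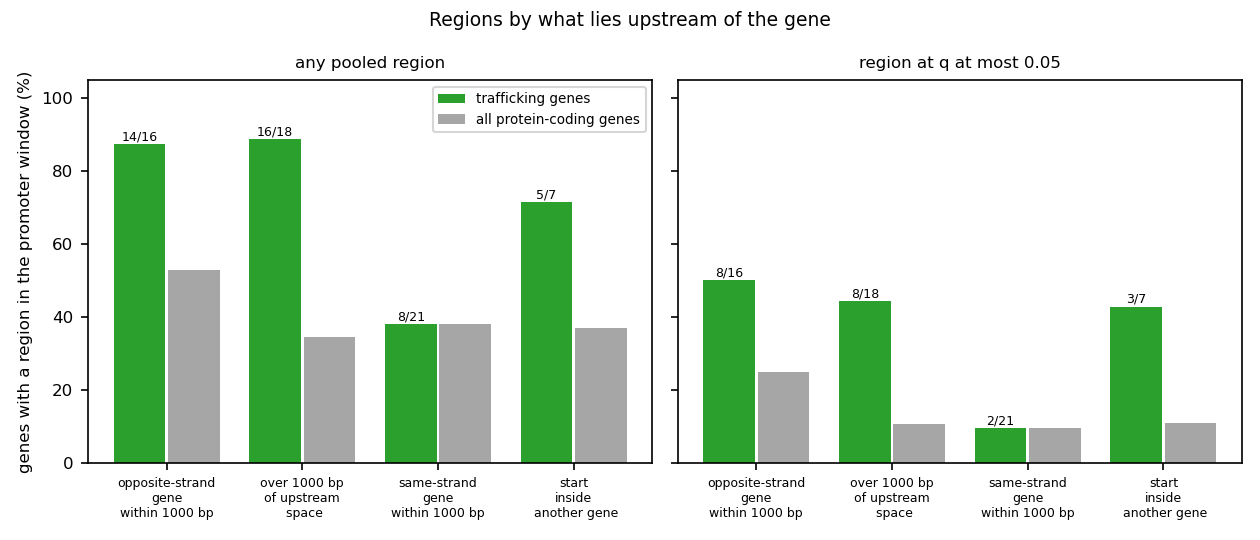
Share of genes (y axis, %) with any pooled region (left panel) and with a region at a q value of at most 0.05 (right panel) in the promoter window, by what lies upstream, for trafficking genes (green, with counts) and all protein-coding genes (grey). The share of trafficking genes is above that of all genes in each arrangement except a same-strand gene within 1000 bp, where 8 of 21 is 38.1% against 38.2%.

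Of the 19 genes without a region, 13 have a same-strand gene within 1000 bp upstream. That arrangement was present at 21 of the 62 trafficking genes, or 33.9%, and at 27.8% of all genes. Among genes with it, 38.1% of trafficking genes and 38.2% of all genes had a region. The 19 were arl-1, arl-5, arl-6, rab-11.2, rab-21, rab-28, rab-30, rab-33, rab-37, vps-8, vps-11, vps-16, vps-18, vps-20, vps-26, vps-35, vps-39, vps-53 and vps-54. For 5 of them neither replicate's own list had a region in the window. The lists hold only regions above a minimum signal, so an empty window says that no region was listed there.

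The window edge affected individual genes. Just inside the upstream edge were arl-13 at 998 bp and snx-17 at 916 bp. Just outside were vps-8 at 1005 bp with a signal of 13.0, vps-36 at 1077 bp with 27.9, and rab-14 at 1092 bp with 78.4. The rab-14 region is an optimal peak at rank 70, stronger than any region inside a window except that of rab-18, but its summit lay only 242 bp upstream of nipi-3, the nearer gene. Counting gene bodies and 2000 bp upstream, 51 genes had at least 1 region outside the promoter window, or 82.3%, against 44.9% of all genes, among them 15 of the 19 without one inside. An outside region past the q threshold was present for 9 genes, or 14.5%, against 8.28% of all genes. In 17 genes the outside region was stronger than the strongest one inside, and in 7 of these it was past the q threshold. No share over all genes is given beside the counts of 17 and 7, so nothing is read from them. An optimal peak with a signal of 43.3 was counted in this way for rab-33, but it lay 94 bp upstream of urm-1 and 136 bp upstream of taf-11.3. A region with a signal of 40.6 was in an intron of vps-51 and 683 bp upstream of mtk-1. One with a signal of 38.1 had its summit in an intron of snx-17 and also in a tRNA gene and in an exon of the non-coding RNA gene F17H10.8.

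Other genes of the same pathways, from 7 lists drawn up with earlier results known, are given beside the set. Of 138 listed genes 126 matched the annotation, and 91 or 72.2% had a region, 36 or 28.6% had one past the q threshold and 11 or 8.73% had an optimal peak. Over all protein-coding genes these shares were 38.9%, 12.8% and 3.52%. The strongest were tbc-14, which encodes a protein with a Rab-inactivating domain, at 69.8, the exocyst gene sec-3 at 57.7, the Golgi tether gene cogc-2 at 57.0 and the recycling gene rme-1 at 51.7. Next were dpy-23, a clathrin adaptor subunit, at 47.0, rbg-1 at 45.3, the SNARE gene vamp-8 at 44.1, the COPI coat gene copg-1 at 43.7 and ccz-1, part of the factor that activates Rab7, at 42.9. The lowest were copz-1 at 41.6 and epn-1 at 41.5. In replicate 2 the window of each of these 11 genes held a region in the top 4.65% of the list. In replicate 1 the best region was in the top 0.163% to 10.9% for tbc-14, sec-3, cogc-2, rme-1, dpy-23, copg-1 and copz-1. It was only in the top 86.2% for rbg-1 and 64.0% for epn-1, and vamp-8 and ccz-1 had none in replicate 1. By list, optimal peaks and regions past the q threshold were found for 3 and 3 of 28 Rab regulators, 2 and 7 of 16 clathrin and adaptor genes, and 2 and 5 of 14 COPI and COPII coat genes. They were found for 2 and 5 of 25 tethers, 1 and 5 of 12 further ESCRT and endosome genes, and 1 and 8 of 26 SNARE and NSF genes. For Arf, Sar and other small GTPases of traffic they were found for 0 and 3 of 5, the 3 being arf-6, sar-1 and unc-108.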

How the data were processed

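eGFP-tagged PHA-4 was profiled by ChIP-seq in 2 biological replicates of 1 group, with library fragments of 150 to 350 bp per the labels. The authors deposited narrowPeak lists for each replicate, for the pooled replicates and for the regions passing the irreproducible discovery rate. The signal of each region is the authors' deposited value, whose scaling is not stated. The deposited lists give −log10 of each q value, converted here to q. The aligner, peak caller and cut-offs were not given in the sources used here. Read depth is unknown. The ce10 lists were not used.

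The ce11 coordinates are counted from 1. Genes came from Ensembl release 115 on WBcel235. A region was given to every protein-coding gene whose promoter window, 1000 bp upstream to 200 bp downstream of any transcript 5′ end, held its summit. Replicates were compared by rank and by overlap of at least 1 bp. The assignment of summits to windows, the overlap and the search for GAGAGAG planted on the forward strand were tested on simulated data. Searches for the other motifs were not tested in this way. Python 3.11.15 with pandas 2.3.3, numpy 2.4.6, scipy 1.17.1 and matplotlib 3.10.9 was used.

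The members, gene lists and alternatives were chosen with earlier results of these data known, and no test was made. With 1 group there are no covariates or batches to compare. Named genes are those with an optimal peak or a region at q of at most 0.05, the strongest and weakest of each role, those beside the optimal cut-off, and related genes with an optimal peak. Others named, including those beside the window edges or stronger outside the window, were picked after their values were seen. Alternatives changed the window, the number of genes per region, the q and signal thresholds, the overlap, the motif distance and the replicates used.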

Additional observations from a re-analysis of the deposited data

How the results depend on the processing

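No paired analysis was possible because all samples belong to 1 group. The 5 genes with an optimal peak became 3 with a window of 500 bp upstream and 100 bp downstream, 3 with 1 gene per region, and 3 with the stronger 50% of the optimal list. The share of all genes also fell, to 2.85%, 2.56% and 1.9% in that order, against 3.52%. A window of 2000 bp upstream and 200 bp downstream gave 7 genes with an optimal peak, and the share of all genes rose to 4.62%. At q values of at most 0.05 the shorter window gave 14 genes and the longer one 25, against 10.1% and 16.5% of all genes. Replicates taken alone gave 3 to 5 genes among the 839 strongest regions, and 0 to 27 genes at q values of at most 0.05, against 21 in the pooled list; the 0 is replicate 1, where no region passes. Genes with a region in both replicates fell to 16 when at least 50% of both regions had to overlap and to 12 with summits within 100 bp, against 25. No share over all genes is given for these overlap settings, so nothing is read from that fall. The forkhead heptamers were in 11 regions within 50 bp of the summit, against 20 within 100 bp. The E-box was in 0 regions within 50 bp and 5 within 150 bp, against 3 within 100 bp. For both motifs, no share over all promoter regions is given at the other distances, so nothing is read from these changes. The causes were not tested. The counts of genes with any pooled region ran from 33 with the shorter window to 51 with the longer one, against 43. The shares of all genes in these windows were 29.3% and 49%, against 38.9%. These counts, and the median signal, of 17.8 to 22.1 against 22.1, stayed within the limits set for them, whose values are not given here.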
